A study of Mus musculus with 2 samples.

Results

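The genes described here are 10 lineage regulators of T cells and innate lymphocytes, namely Foxp3, Tbx21, Gata3, Eomes, Tcf7, Ikzf2, Zbtb16, Ahr, Maf and Rora, out of 31253 genes in the count tables. They were picked by name, as transcription factors that mark or direct lymphocyte lineages, at a time when earlier results of these data were known. The data are single-cell RNA counts from dissociated whole intestine of 2 mice, both labelled WT. One library, called the RA library here, came from an animal with collagen-induced arthritis, an inflammatory joint disease model, that was kept on standard chow. The other, the butyrate library, came from an animal on a 1% butyrate diet, butyrate being a product of bacterial fibre fermentation. Whether the second animal had arthritis too is not given, and strain, sex and age are not given in the sources used here.

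Each group is 1 animal and 1 library, so no difference between the diets was tested, and diet, arthritis, animal and library cannot be told apart. All intervals are exact 95% intervals and cover counting error only. The RA library held 10140 barcodes with 61912439 unique molecular identifiers (UMIs, each counting 1 captured RNA molecule). For butyrate the numbers were 9959 and 67894477. After removal of barcodes under 500 UMIs, under 250 genes or above 25% mitochondrial UMIs, 6909 and 8247 cells were left, with medians of 4712 and 5141 UMIs. Between them the libraries shared 27 barcode sequences, 19 of them among kept cells. Levels are given in CPM, the UMIs of a gene per 1000000 UMIs of all cells in a gate.

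Lineage regulators are transcription factors whose presence fixes what a lymphocyte can become. Foxp3 defines regulatory T cells, which restrain immune responses to food and bacteria in the gut, and Tbx21 and Eomes (T-box factors) direct cytotoxic and interferon-producing cells. Gata3 serves type 2 helper T cells and innate lymphoid cells, Tcf7 keeps T cells naive or memory-like, and Zbtb16 drives innate-like T cells. Ahr senses dietary and bacterial ligands, and Maf and Rora act in gut helper, regulatory and innate lymphoid cells. Ikzf2, also called Helios, is found in regulatory T cells and in many unconventional T cells.

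T cells were gated as cells with at least 1 UMI of Cd3e, a chain of the T cell receptor complex, and none of the B cell gene Cd79a. This gave 684 RA and 1235 butyrate cells, with medians of 6313 and 6323 UMIs. Within them, Cd4 marked 228 and 483 cells, Cd8b1 96 and 263, and Trdc (the gamma delta receptor constant region) 98 and 112, while 267 and 389 cells carried none of the 3. The T label held against other T cell genes: Cd3g had a UMI in 649 of 684 and 1158 of 1235 cells and Trbc2 in 627 and 1183. The innate gate, cells without Cd3e but with Il7r (the interleukin 7 receptor) or Ncr1, held 294 and 384 cells. Its label held only in part, since Trbc2 had a UMI in 134 of 294 and 245 of 384 of its cells, Cd79a in 43 and 50, and the epithelial gene Epcam in 70 and 78. This gate also held myeloid markers (C1qa, C1qb, Lyz2, Csf1r, Cst3, Flt3, Itgax, S100a8) at a summed 2626 and 2894 CPM. Its natural killer and innate lymphoid markers summed to 1333 and 1638 CPM. Its cells with Ncr1, the natural killer receptor NKp46, numbered 63 and 92, and the killer cell adaptor Tyrobp was seen in 56 and 80 of them.

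RNA of other cell types was counted in T cells of both libraries. The goblet cell mucin Muc2 had a UMI in 210 of 684 and 263 of 1235 T cells. The 4 fibroblast markers (Col1a1, Col3a1, Dcn, Pdgfra) summed to 478 CPM in RA T cells and 57.3 CPM in butyrate T cells, and 614 and 1209 T cells held no UMI of any of them. B cells, at medians of 4212 and 4582 UMIs, served as a gauge. Foxp3 had a UMI in 0.144% of RA and 0.100% of butyrate B cells, Tbx21 in 0.835% and 0.842%, Gata3 in 0.432% and 0.301%, Eomes in 0.058% and 0.120%, Tcf7 in 1.15% and 1.20% and Ikzf2 in 1.18% and 1.10%. The shares were higher for Zbtb16 (2.82% and 1.10%), Rora (5.10% and 2.77%), Maf (8.92% and 6.54%) and Ahr (13.8% and 16.7%). So the first 6 members were close to absent from B cells, and shares of the last 4 in T cells are read beside these values. B cells were not shown to lack the last 4 themselves.

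On GRCm38 with GENCODE M21 genes, the members lie as follows: Foxp3 at chrX:7573644-7595245, Tbx21 at chr11:97098071-97115331, Gata3 at chr2:9857078-9890034, Eomes at chr9:118478212-118486132 and Tcf7 at chr11:52252371-52283014. Ikzf2 lies at chr1:69531214-69687245, Zbtb16 at chr9:48654297-48836222, Ahr at chr12:35497974-35535038, Maf at chr8:115682942-115707794 and Rora at chr9:68653786-69388246. Counts are per whole gene, not per exon or transcript.

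Foxp3 and Tcf7 are shown first at the level of sequence, because theirs was the lowest ratio (in the butyrate library shared with Tcf7 and Zbtb16) among the pairs with enough cells to be compared in T cells at equal depth (at least 3 cells given by the product of the margins in each library, though a second random draw moved the butyrate value), and because Foxp3-positive T cells often carried Gata3, Ahr and Rora as well. The windows are the 250 bases before a RefSeq transcription start on GRCm38.p6, read 5′ to 3′ along the gene's strand. The Foxp3 window at its second listed start lies at chrX:7580233-7580482 on the plus strand, within the Foxp3 gene and inside an exon of the noncoding gene Flicr. Tcf7's window at its first listed start lies at chr11:52283015-52283264 on the minus strand, upstream of the annotated Tcf7 gene and inside the noncoding gene A630014C17Rik. Capitals mark matches to 7 motifs searched on both strands: the GATA motif in the form AGATAA and in the other common form TGATAA, the T-cell factor motif in the form CTTTGAA and in the other common form CTTTGAT, the Ikaros motif as TGGGAA, the forkhead motif as GTAAACA, the dioxin response motif as GCGTG, the ROR element motif as AGGTCA and the ETS motif as CCGGAA.
Foxp3: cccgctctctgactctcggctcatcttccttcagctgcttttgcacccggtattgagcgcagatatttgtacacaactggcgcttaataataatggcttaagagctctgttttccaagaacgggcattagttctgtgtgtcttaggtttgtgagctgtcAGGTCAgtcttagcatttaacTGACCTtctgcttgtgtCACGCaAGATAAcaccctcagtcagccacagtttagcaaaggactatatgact
Tcf7: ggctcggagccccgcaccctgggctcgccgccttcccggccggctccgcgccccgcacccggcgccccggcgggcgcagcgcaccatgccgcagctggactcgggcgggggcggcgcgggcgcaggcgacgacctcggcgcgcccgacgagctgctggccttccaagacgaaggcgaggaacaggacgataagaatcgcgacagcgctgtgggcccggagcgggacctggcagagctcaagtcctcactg
The Foxp3 window held 1 GATA match, 1 dioxin response match (the core letters that Ahr binds) and 2 ROR element matches, with no overlap among them. The letters searched for the ROR element are only the core of the site that Rora binds, so these 2 matches were not read as Rora sites. Of 32851 windows of this length, 16.6% held the GATA letters, 28.2% the dioxin response letters and 14.0% the ROR letters. The Tcf7 window held none of the 7 motifs. As background, letters of this window are read as protein in longer Tcf7 isoforms, so it is not promoter sequence for all transcripts. Both genes have another listed start, and the windows shown were chosen with their matches known: the window of the other Foxp3 start held 2 GATA matches, 1 dioxin response match and no ROR match, and that of the other Tcf7 start 1 ROR match and 1 ETS match. These are matches of letters only. RefSeq windows were on hand for 6 of the 10 members (Foxp3, Tbx21, Gata3, Eomes, Tcf7 and Rora).

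Foxp3 was found in T cells and in the innate gate (7.91 and 13.7 CPM, 3.74% and 4.95% of cells), and at or under 1.57 CPM in B cells, epithelial cells, fibroblasts, endothelial and myeloid cells. It gave 25.8 CPM (95% interval 21.6 to 30.7) in RA T cells, with a UMI in 62 of 684 cells (9.06%), and 19.5 CPM (16.8 to 22.6) in butyrate T cells, with a UMI in 79 of 1235 (6.40%). Among Cd4-positive cells the share was 14.0% (9.80 to 19.2) in the RA and 7.45% (5.28 to 10.2) in the butyrate library, and the butyrate over RA ratio of the CPM was 0.57 (0.40 to 0.80). In T cells with none of Cd4, Cd8b1 and Trdc Foxp3 was in 28 of 267 and 39 of 389 cells, and the ratio was 1.09 (0.78 to 1.52). The ratios of shares were 0.53 (0.32 to 0.88) in Cd4-positive cells and 0.96 (0.57 to 1.61) in the cells with none of the 3. At 1000 UMIs per cell these ratios of shares were 0.58 (0.22 to 1.58) and 0.51 (0.19 to 1.33). The thinned values rest on 9 RA and 11 butyrate Cd4-positive cells and on 12 and 9 cells with none of the 3. Their intervals are too wide to show or to remove a gap between these gates. Gamma delta cells had a Foxp3 UMI in 0 of 98 cells, which allows a share of up to 3.06% of cells with a UMI (3 counts of the total) and sets no limit on cells expressing the gene, and in 1 of 112.

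**Figure D1:**
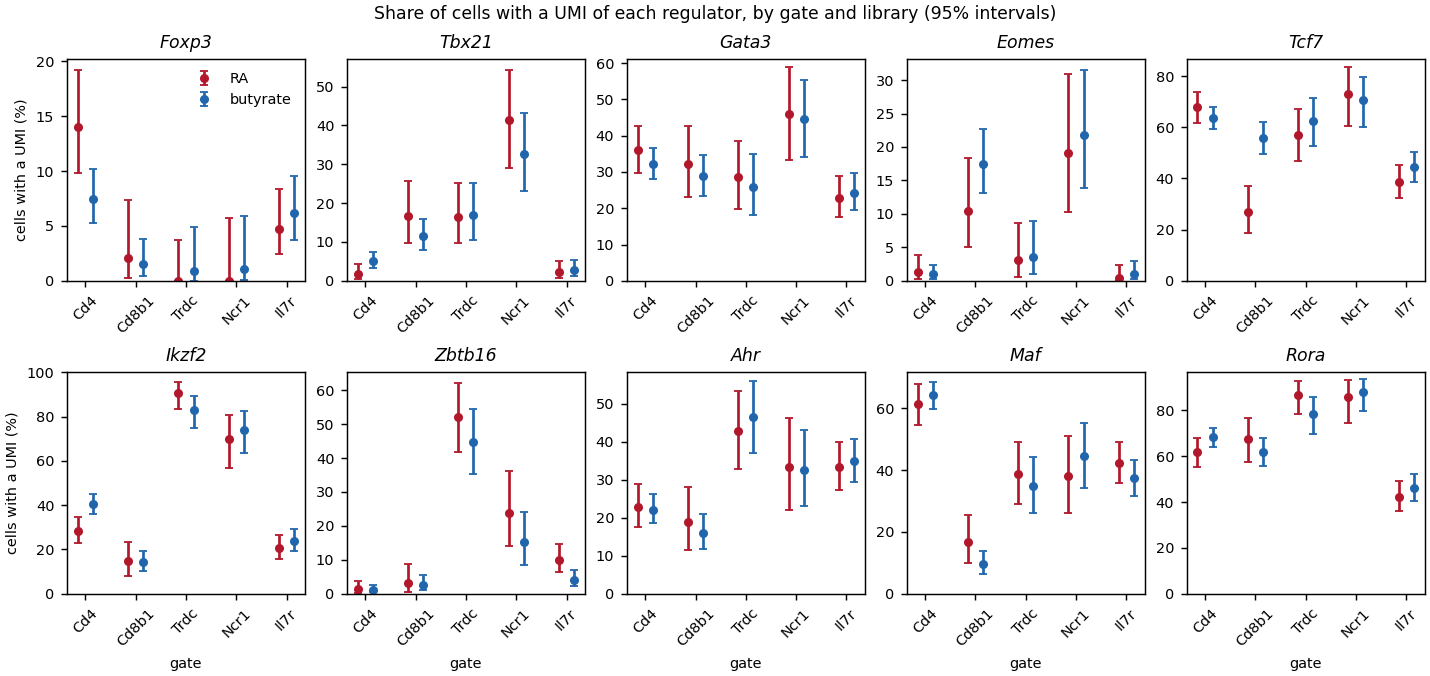
Share of cells with at least 1 UMI (percent) of each of the 10 regulators, by gate (x axis) and library (red RA, blue butyrate), with exact 95% intervals for counting error; each y axis has its own scale. Zbtb16 and Ikzf2 are highest in Trdc-positive cells, and Tcf7 in Cd8b1-positive cells is at 27.1% in the RA against 55.9% in the butyrate library.

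The T-box factors were low in Cd4-positive cells and higher in Cd8b1-positive and Ncr1-positive cells. Tbx21 had a UMI in 16.7% of RA and 11.4% of butyrate Cd8b1-positive cells, at 33.4 and 19.8 CPM, a ratio of 0.59 (0.37 to 0.96). Among Cd4-positive cells its order was the other way, with 5 UMIs in 4 RA cells and 30 UMIs in 24 butyrate cells, a ratio of 2.84 (1.09 to 9.38). Ncr1-positive innate cells held Tbx21 in 41.3% and 32.6% of cells, the highest shares of the gates examined in both libraries.

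Eomes rested on few cells. In RA Cd4-positive cells all 29 of its UMIs came from 3 cells and 65.5% of them from 1 cell, so the ratio of 0.11 (0.04 to 0.27) there describes those cells. In Cd8b1-positive cells 10 of 96 RA cells (10.4%) and 46 of 263 butyrate cells (17.5%) had a UMI, while the CPM went the other way, from 34.6 to 25.7, and no order was read from that. At equal depth of 1000 UMIs no T cell of either library held both Tbx21 and Eomes, where the product of their margins was 0.23 and 0.08 cells, under 1 cell in both.

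Gata3 was spread across the gates, with a UMI in 32.5% of RA and 28.7% of butyrate T cells at 86.8 and 75.1 CPM, a ratio of 0.87 (0.77 to 0.98). The innate gate gave 96.9 and 120.6 CPM, a ratio of 1.24 (1.05 to 1.47). When cells with Cd3d, Cd3g, Cd79a or Epcam and cells without the leukocyte gene Ptprc were also removed, leaving 105 and 115 innate cells, the ratio was 1.73 (1.32 to 2.26). There 5 cells held 52.2% of the RA and 5 cells 40.1% of the butyrate Gata3 UMIs, and the ratio of shares was 1.20 (0.74 to 1.96). In this stricter gate myeloid markers summed to 5631 and 5335 CPM and mast cell markers to 327 and 1382 CPM. The part of either in the Gata3 ratio was not tested. In the innate gate as first defined, with cells thinned to 1000 UMIs, the Gata3 CPM ratio was 0.98. B cells held Gata3 at 1.27 and 0.97 CPM, so its level in both gates stood far above theirs.

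Tcf7, which pairs with Lef1 to keep T cells in a naive or memory state, was the one member higher in butyrate than in RA T cells. It had a UMI in 387 of 684 cells (56.6%) at 201 CPM in the RA library and in 759 of 1235 (61.5%) at 242 CPM in the butyrate library, a ratio of 1.20 (1.12 to 1.30). The difference was largest in Cd8b1-positive cells, where 26 of 96 RA cells (27.1%, 18.5 to 37.1) and 147 of 263 butyrate cells (55.9%, 49.7 to 62.0) carried it, at 88.7 and 174 CPM. At 1000 UMIs per cell the shares were 10.4% and 18.6%; the unthinned medians were 7543 and 8579 UMIs. In Cd4-positive cells Tcf7 stood at 286 and 300.2 CPM, a ratio of 1.05 (0.94 to 1.18). Cd8b1-positive cells also differed in other genes: the granzyme gene Gzma gave 2431 CPM in the RA and 205 CPM in the butyrate library, and Lef1 a ratio of 1.63 (1.45 to 1.83). Whether the libraries hold the same kinds of Cd8b1-positive cells was not tested.

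Ikzf2 and Zbtb16 were the members most tied to gamma delta cells. Ikzf2 had a UMI in 89 of 98 RA (90.8%) and 93 of 112 butyrate (83.0%) Trdc-positive cells, at 2192 and 2070.5 CPM. In all T cells it gave 936 and 663 CPM, a ratio of 0.71 (0.68 to 0.74), and in Cd4-positive cells the reverse order, 506 and 647 CPM with 28.5% and 40.4% of cells. Cd8b1-positive cells had it in 14.6% and 14.4% of cells while the CPM was 40.3 and 123, a ratio of 3.05 (2.15 to 4.45). The median was 2 UMIs per positive cell in both libraries, and 5 of the 38 positive butyrate cells held 67.3% of the UMIs there, 20.3% of them in 1 cell, so the CPM ratio rests on a few cells.

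Zbtb16, the factor PLZF of innate-like T cells, had the lowest butyrate over RA ratio of the 10 members in T cells before thinning. With cells thinned to 1000 UMIs its ratio was 0.57, and Eomes (0.31), Tbx21 (0.42) and Foxp3 (0.53) were lower. It gave 68.8 CPM (61.8 to 76.5) with a UMI in 97 of 684 RA cells (14.2%), and 27.9 CPM (24.6 to 31.5) with a UMI in 86 of 1235 butyrate cells (6.96%), a ratio of 0.41 (0.34 to 0.48). Trdc-positive cells held 54.4% of the T cell UMIs of Zbtb16 in the RA against 66.2% in the butyrate library, and there the levels lay closer, at 231 and 199 CPM with 52.0% and 44.6% of cells, a ratio of 0.86 (0.70 to 1.07). Without Trdc-positive cells the T cell ratio was 0.28. Cd4-positive and Cd8b1-positive cells had only 4 to 8 UMIs of it in each library.

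In the innate gate the Zbtb16 ratio was 0.65 (0.46 to 0.91), but the Ncr1-positive cells of that gate gave 63.6 and 62.4 CPM, a ratio of 0.98 (0.60 to 1.64). In the fibroblast, B, epithelial, endothelial and myeloid gates Zbtb16 was lower in the butyrate library. In fibroblasts, where it was high, it gave 231.5 CPM in the RA and 99.1 CPM in the butyrate library, a ratio of 0.43 (0.37 to 0.49). Ratios were 0.33 (0.26 to 0.42) in B cells, 0.46 (0.39 to 0.54) in epithelial cells, 0.45 (0.33 to 0.62) in endothelial cells and 0.41 (0.22 to 0.71) in myeloid cells. Of all genes with at least 20 UMIs, 10.6% were at least 1.5-fold lower in fibroblasts, 19.5% in B cells, 13.6% in epithelial cells, 17.4% in endothelial cells and 13.2% in myeloid cells. Fibroblasts made up 838 of 6909 RA and 334 of 8247 butyrate cells and held 54.4% and 28.9% of all Zbtb16 UMIs. In the T cells without any fibroblast marker UMI the ratio was 0.44 (0.37 to 0.53), and the level in B cells was 10.6 and 3.49 CPM. The lower butyrate level was also counted in T cells without a UMI of these fibroblast markers and in gates outside lymphocytes. A lack of these UMIs does not show that a cell holds no fibroblast RNA. The part of fibroblast RNA in the ratios of T cells and of the other gates was not tested.

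**Figure D2:**
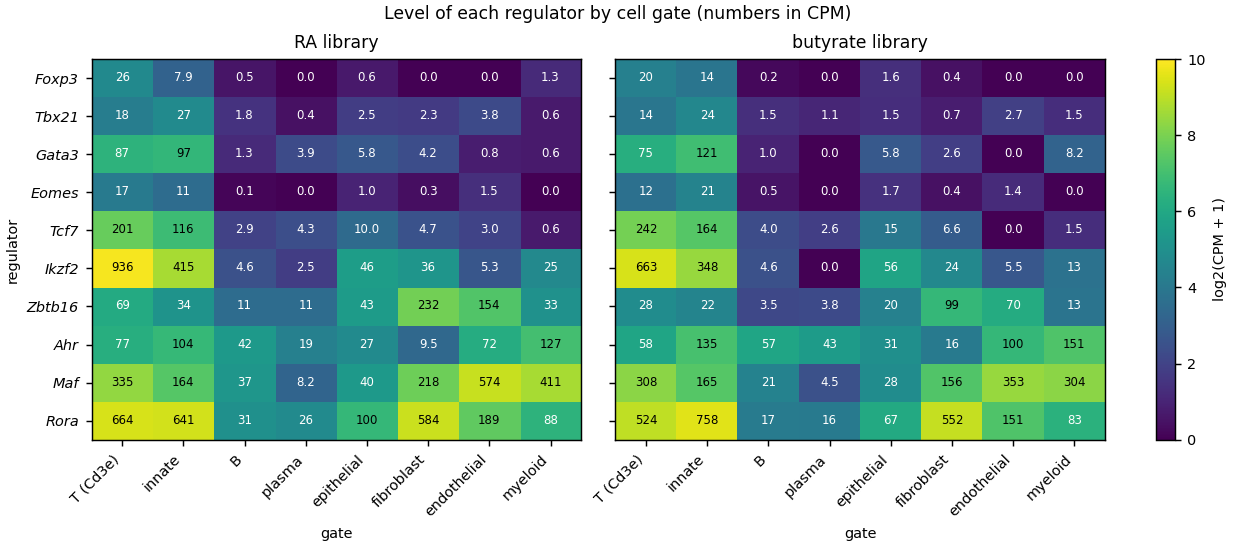
Level of each regulator (rows) by cell gate (columns) in the RA (left) and butyrate (right) library; colour is log2(CPM + 1) and the printed numbers are CPM. Foxp3, Tbx21, Gata3, Eomes, Tcf7 and Ikzf2 are higher in the T and innate gates than in each of the 6 other gates of the same library, while Zbtb16, Ahr, Maf and Rora reach similar or higher levels in stromal or myeloid cells.

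Ahr, the receptor for dietary and bacterial aryl ligands, was lower in butyrate than in RA T cells and higher in other cells. T cells gave 76.6 and 57.8 CPM, a ratio of 0.75 (0.66 to 0.86), and the innate gate 104 and 135 CPM, a ratio of 1.31 (1.11 to 1.54). B cells held it at 41.7 and 57.3 CPM, a ratio of 1.37 (1.27 to 1.49). Its level in butyrate T cells thus lay at that of butyrate B cells, and after subtraction of the B cell level the T cell ratio was 0.016. Fibroblasts held Ahr at 9.47 and 16.2 CPM, below B cells. How much of the B cell level came from B cells themselves was not tested, so 0.016 does not tell how much Ahr T cells hold. Trdc-positive T cells held Ahr at 104 and 119 CPM. In Trdc-positive cells 42.9% and 46.4% had a UMI, more than the 22.8% and 22.2% of Cd4-positive cells.

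Maf, which acts in interleukin 10 producing and helper T cells, was highest among T cells in the Cd4-positive ones, at 599 and 592 CPM with 61.4% and 64.4% of cells, a ratio of 0.99 (0.91 to 1.07). Trdc-positive cells gave 225 and 142 CPM, a ratio of 0.63 (0.50 to 0.80), and Cd8b1-positive cells 43.8 and 22.0 CPM. Fibroblast, endothelial and myeloid cells also held Maf at 156 to 574 CPM. Its near-equal level in Cd4-positive cells thus stood beside lower butyrate levels in most other gates.

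Rora, a nuclear receptor of innate lymphoid and interleukin 17 producing cells, was seen in 66.4% and 64.3% of T cells at 664 and 524 CPM, a ratio of 0.79 (0.75 to 0.82). Ncr1-positive innate cells had it in 85.7% and 88.0% of cells at 1575 and 1486 CPM. In Cd8b1-positive cells the ratio was 0.63 (0.56 to 0.72) and in the innate gate 1.18 (1.11 to 1.26).

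Over the T cell gate as a whole, 9 of the 10 members had a ratio below 1, and their median log2 ratio was -0.37 against -0.08 for all 12913 genes with at least 20 UMIs. Past 1.5-fold, 1 member (Zbtb16) was lower and 0 were higher, where 15.6% of all genes were lower and 4.14% higher. In Cd4-positive cells 2 of 9 members with enough UMIs were lower (background 12.3%) and 1 was higher (background 6.80%). Cd8b1-positive cells had 3 of 8 lower (background 12.6%) and 2 of 8 higher (background 9.18%), and Trdc-positive cells 1 of 8 lower (background 11.8%) and 0 higher (background 10.1%). In the innate gate 1 of 10 was lower (background 16.9%), Zbtb16 at 0.65 (0.46 to 0.91). There 2 were higher (background 5.94%), those being Foxp3 at 1.73 (0.98 to 3.15) and Eomes at 1.96 (1.22 to 3.22). Ratios not given above for this gate were 1.41 (1.21 to 1.63) for Tcf7 and 0.84 (0.77 to 0.92) for Ikzf2. Maf stood at 1.01 (0.88 to 1.16) and Tbx21 at 0.89 (0.62 to 1.26). Under the stricter innate gate Eomes stood at 0.95, and Foxp3 had only 1 RA and 3 butyrate UMIs, in 1 cell each, too few to be counted. With 8 to 10 members a gate, these counts were not read as particular to the members.

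**Figure D3:**
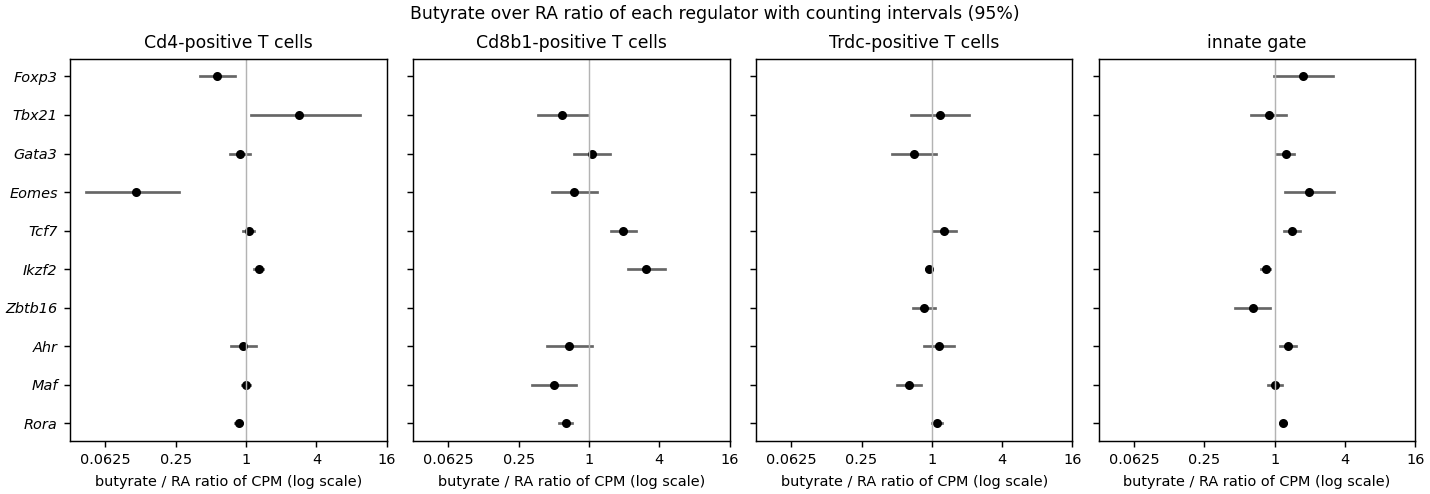
Butyrate over RA ratio of CPM (x axis, log scale) of each regulator in 4 gates, with exact 95% intervals for counting error and a line at 1; members with fewer than 20 UMIs in a gate are not drawn. Of the points drawn, Eomes (0.11) and Tbx21 (2.84) in Cd4-positive cells and Ikzf2 (3.05) in Cd8b1-positive cells lie farthest from 1.

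Genes known to act with the members were described from 8 lists, to be read against the T cell gate as a whole, where 15.6% of all genes were at least 1.5-fold lower, 4.14% higher, and the median was -0.08 on the log2 scale. In the T cell gate 5 of 10 genes of the Maf and Rora list were at least 1.5-fold lower and 0 higher, with a list median of -0.66 on the log2 scale. Il17f, an inflammatory cytokine, had 311 RA and 212 butyrate UMIs, a ratio of 0.37 (0.31 to 0.44), and the leukotriene receptor gene Ltb4r1 the same ratio of 0.37. Of the 11 T-box list genes 2 were higher, Ifng (1.60, 1.30 to 1.99) and Cxcr3 (1.62, 1.31 to 2.02), and 4 lower, among them Gzma (0.13) and Ccl5 (0.53). Among the 10 Foxp3 list genes 1 was higher, Izumo1r (the folate receptor FR4) at 2.39, and 3 lower, with Nrp1 at 0.36 and Capg at 0.55. The Tcf7 list had 1 of 8 higher, Cxcr5 at 1.69, and 1 lower, Id3 at 0.43, and its median was 0.17. Of the other lineage transcription factors 21 of 22 had enough UMIs, with 0 higher and 1, again Id3, lower. Lists for Gata3, Zbtb16 and Ahr had 0 higher and 1 of 7, 2 of 7 and 1 of 5 lower, and with 5 to 21 genes a list none of these counts was read as particular to its list. Nrp1 is also a gene of stromal and endothelial cells, and the fibroblast marker sum was higher in RA T cells as given above; its part in that ratio was not tested.

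In the innate gate the type 2 cytokine Il13 had 4 RA and 71 butyrate UMIs, a ratio of 16.2 (6.06 to 61.1), and Il17a 14 and 128, a ratio of 8.34 (4.80 to 15.7). These UMIs came from 4 RA and 13 butyrate cells for Il13 and from 5 and 11 cells for Il17a. Other cytokine genes of the Maf and Rora list went in both directions. Il22 stood at 1.94 (1.71 to 2.21), with its UMIs in 18 RA and 15 butyrate cells, and Il4 at 1.67 (1.10 to 2.59). Il17f at 0.61 (0.44 to 0.85) and Il10 at 0.73 (0.54 to 0.98) were lower. Of the 9 genes of that list with enough UMIs, 4 had a ratio above 1 in the innate gate. All 10 measured T-box list genes had a ratio above 1 there, 4 of them past 1.5-fold higher where 5.94% of all genes were. Ifng stood at 2.66. In this gate 9 of 9 measured Zbtb16 list genes, 4 of 4 of Ahr and 6 of 8 of Tcf7 were above 1 too. So were 6 of 9 Gata3 list genes, 15 of 21 other lineage factors and 5 of 10 Foxp3 list genes. The share of all genes above 1 was not counted, and their median was -0.05 on the log2 scale. The T-box count was not read as particular to its list. Under the stricter innate gate the T-box list median was 0.28 on the log2 scale, against -0.07 for all genes, and Il12rb2 was at 0.89. The T cell marker sum of the innate gate was 756 CPM in the RA and 1349 CPM in the butyrate library, and the sum of 4 mast cell markers (Mcpt1, Mcpt2, Cpa3 and Kit, the last also found in innate lymphoid cells) was 182 and 496 CPM, or 327 and 1382 CPM under the stricter gate. The part of either in these ratios was not tested.

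Co-detection was counted in T cells thinned at random to 1000 UMIs each, as the number of cells with both genes over the product of the margins (the number given if each gene were placed without regard to the other). Of 45 pairs, 25 had a product of at least 3 cells in each library. Of these, 15 were above 1 in both libraries, 4 below 1 in both and 6 on different sides. Within Cd4-positive cells 8 of 12 such pairs were above 1 in both libraries and 1 below. Within Trdc-positive cells 1 of 11 was above 1 in both and 4 were below. Pairs of other genes were not counted in any gate, so no pair count was read as particular to the members. Foxp3 with Maf stood at 2.88 in the RA against 3.02 in the butyrate library, Foxp3 with Ikzf2 at 2.75 and 3.48, and Foxp3 with Rora at 2.09 and 2.21. Ikzf2 was present in 17 of 22 Foxp3-positive cells in the RA library (54.6 to 92.2%) and in 17 of 20 in the butyrate library (62.1 to 96.8%), against 26.5% and 23.5% of the other T cells. In each library 11 Foxp3-positive cells held both Ikzf2 and Maf, 6 held Ikzf2 without Maf, and 2 RA cells and 1 butyrate cell held neither. Within Cd4-positive cells Foxp3 with Maf stood at 2.03 and 1.64, with Ikzf2 at 4.11 and 3.21, and with Rora at 1.62 and 1.96. For Maf and Ikzf2 the product of the margins there was under 3 cells in at least 1 library.

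**Figure D4:**
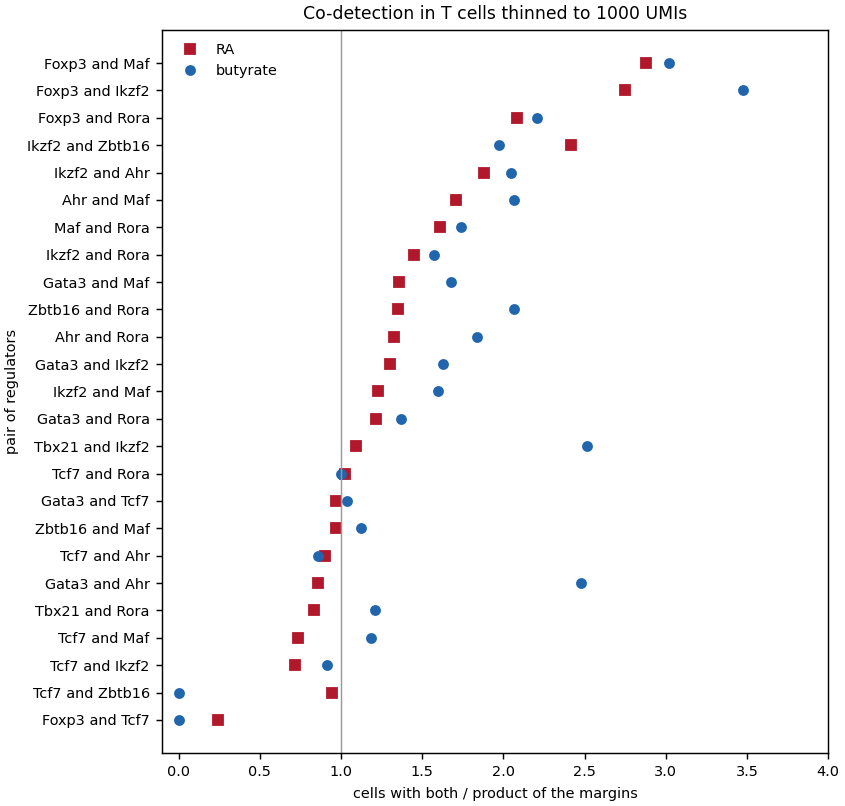
Cells with both genes over the product of the margins (x axis) for the 25 pairs of regulators with a product of at least 3 cells in each library, in T cells thinned to 1000 UMIs; squares are the RA and circles the butyrate library, ordered by the lower of both values. Pairs of Foxp3 with Maf, Ikzf2 and Rora lie above 2 in both libraries, and pairs with Tcf7 lie near or below 1 in nearly all cases.

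Foxp3 was seen with Gata3 in 4 of 22 RA and 8 of 20 butyrate cells, at 2.07 and 5.95 times the product of the margins, and with Ahr in 4 and 5 cells, at 2.34 and 4.29 times; these products were under 3 cells. No Foxp3-positive cell carried Tbx21, Eomes or Zbtb16 at this depth, where the products were 0.13 to 0.90 cells. Without thinning, Gata3 was in 54.8% of 62 RA and 55.7% of 79 butyrate Foxp3-positive cells, against 30.2% and 26.8% of other T cells, although the Foxp3-positive cells were shallower (medians 5054 and 4824 UMIs against 6371 and 6448). Ctla4, a regulatory T cell inhibitory receptor, was in 98.4% and 100% of them against 70.9% and 70.8% of other T cells, and the interleukin 2 receptor gene Il2ra in 71.0% and 55.7% against 15.8% and 15.3%.

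Of the 25 pairs with a product of at least 3 cells, Foxp3 with Tcf7 had the lowest ratio in the RA library and shared the value 0 with Tcf7 and Zbtb16 in the butyrate library. At 1000 UMIs 1 of 22 RA and 0 of 20 butyrate Foxp3-positive cells had Tcf7, ratios of 0.24 and 0, while 19.4% and 21.3% of other T cells had it. A second random draw gave 0.31 and 1.05, and 2000 UMIs per cell 0.09 and 0.38, so the butyrate value varied with the draw. Without thinning 22.6% (12.9 to 35.0) and 31.6% (21.6 to 43.1) of Foxp3-positive cells carried Tcf7, against 60.0% and 63.5% of the others. The pairs of Tcf7 with Zbtb16 (0.95 and 0), Ikzf2 (0.72 and 0.92) and Ahr (0.90 and 0.86) were also below 1 in both libraries, and those with Gata3 (0.97 and 1.03) and Rora (1.03 and 1.00) were near 1.

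Ikzf2 was found with Zbtb16 at 2.41 and 1.97 times the product of the margins over all T cells, in 19 of 28 and 14 of 29 Zbtb16-positive cells. Within Trdc-positive cells the same pair stood at 1.05 and 0.85. Ikzf2 with Ahr gave 1.88 and 2.05, and Ahr with Maf 1.71 and 2.06. In the innate gate 12 of 15 eligible pairs were above 1 in both libraries; Gata3 with Rora gave 2.09 and 2.12, Ikzf2 with Rora 2.09 and 2.07, and Gata3 with Tcf7 0.52 and 0.52. Cells of 1 library are not replicates, so these ratios describe 2 libraries, and the gate joins cell kinds of different depth and content.

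Genes most like a member were ranked, in T cells at 1000 UMIs, by the log2 ratio of their share in member-positive over member-negative cells, taking the lower value of both libraries. For Foxp3 the leading gene was Cd83 (8 of 22 and 6 of 20 positive cells, against 4.24% and 3.70% of the others). Maf-positive and Ahr-positive cells were led by Il10, in 6.62% and 6.39% of Maf-positive against 0.38% and 0.41% of other T cells. Gata3 was led by Il1rl1, the interleukin 33 receptor, in 5 of 60 RA and 5 of 83 butyrate positive cells, the fewest allowed. Zbtb16 was led by Tmem176b and Il1r1, with Trdc and Kit also among its first 5, and Ikzf2 by Klrh1, Ky and the chemokine gene Xcl1. Rora was led by Coro2b, Pxdc1 and Il1r1, with Il17a at rank 4. Rora-positive cells held Il17a in 8.30% and 5.10% against 0.70% and 0.12% of the others. Foxp3 itself was among the first 5 for Maf. Tcf7 had no gene above a value of 1.47, the lowest leading value among the 8 members ranked, and Tbx21 and Eomes had under 20 positive cells in each library and were not ranked.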

How the data were processed

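Libraries were made with droplet 3' chemistry, per the labels' protocols. Values are whole UMI counts as the authors deposited them, not normalized. Tools named in the submitters' processing notes are Cell Ranger, version 6.0.1, Seurat, versions 4.0.3 and 4.0.4, and the mm10 build; the file headers name Cell Ranger 7.1.0. Whether intronic reads were counted is not given in the sources used here, and long genes such as Rora may gather them, so levels were not ranked between genes.

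Cells were gated on raw UMIs with at least 1 UMI of each gate gene. UMIs were summed per gate and library and divided by the gate's total. Intervals are exact Poisson for CPM, Clopper-Pearson for shares and conditional binomial for ratios, at 95%, and cover counting error only. Where a count is 0, the share it allows is 3 counts of the total. Genes needed 20 UMIs over both libraries in a gate to be counted past 1.5-fold, with 0.5 added to each sum. For co-detection each cell was thinned to 1000 UMIs, which left out 1 RA T cell. Other cell gates required Cd3e at 0: B (Cd79a), epithelial (Epcam), fibroblast (Col1a1 or Dcn at least 2), endothelial (Pecam1 and Cdh5) and myeloid (C1qa or Lyz2 at least 2). Scrublet in scanpy 1.11.5 marked 0 RA and 2 butyrate doublets and so had not worked; none were removed, and removal of the 382 and 544 highest scores was an alternative. All 10 members were counted in each main gate, though not every value is printed. Pairs named are the 6 highest and 6 lowest and those of Foxp3, and the 5 most alike genes and the 2 highest and 2 lowest list genes were eligible. Members and lists were chosen with earlier results of these data known. Positions were matched to GENCODE M21 on GRCm38 (31107 of 31253 identifiers). Code was tested on simulated data. The 4 alternatives added after seeing the data leave out the top cell, Trdc-positive cells (for ratios and for pairs) or cells with fibroblast markers.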

Additional observations from a re-analysis of the deposited data

Results flagged for a closer look

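For 6 members the butyrate over RA ratio lay above 1 in one gate and below 1 in another, with both counting intervals clear of 1, and the gates of a pair can overlap. These differences were not tested, since each group is 1 library. The ratio of both ratios was 4.81 for Tbx21 between Cd4-positive and Cd8b1-positive T cells and 17.1 for Eomes between the innate gate and Cd4-positive cells, where 1 RA cell held 65.5% of the Eomes UMIs. For Ikzf2 it was 4.30 between Cd8b1-positive cells and all T cells. Gata3 gave 1.44 and Ahr 1.73 between the innate gate and T cells, and Rora gave 1.87 between the innate gate and Cd8b1-positive cells.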

How the results depend on the processing

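Limits include 1 library per diet, the mixed content of the innate gate and few UMIs of Tbx21, Eomes and Foxp3. With all cells thinned to 1000 UMIs the T cell CPM ratios were 0.53 for Foxp3, 0.42 for Tbx21, 0.31 for Eomes and 0.57 for Zbtb16, and the ratios of shares 0.55 for Tbx21, 0.37 for Eomes and 0.86 for Rora. In the innate gate thinning gave 6.89 for Foxp3 (4.59 by share), 6.13 for Eomes (4.59 by share), 0.98 for Gata3, 0.80 for Maf, 1.05 for Rora and 0.86 for the Ikzf2 share, and Tcf7 in Trdc-positive cells was 0.88 instead of 1.28. A mean over cells gave 0.49 for Zbtb16 in T cells and 1.16 for Tcf7 and 0.80 for Maf in the innate gate. The stricter innate gate gave 1.73 for Gata3, 0.95 for Eomes, 0.72 for Ikzf2, 1.62 for Ahr and 1.36 for Rora, and a mitochondrial limit of 10% gave 1.10 for Rora there. Subtraction of the B cell level gave 0.016 for Ahr in T cells, a value that does not tell how much Ahr T cells hold. Without Trdc-positive cells the T cell ratios were 0.75 for Ikzf2 and 0.28 for Zbtb16, and in cells without fibroblast marker UMIs that of Ikzf2 was 0.67. Pairs above 1 in both libraries numbered 8 of 12 eligible in Cd4-positive cells. Pairs below 1 in both numbered 2 with a second random draw and 1 in Cd4-positive cells, and Foxp3 with Tcf7 in the butyrate library was 1.05 in the second draw. The cause of these shifts was not tested, except that the Cd4-positive gate has fewer cells and eligible pairs. Of 240 such values for the T cell and innate gates and the pair counts, 209 stayed within the counting interval of the reported value (or within 1.5 times for pair counts). None of those values moved with doublet removal, the higher UMI floor, no mitochondrial limit, Cd3e at 2 or the top cell left out. No paired analysis was possible because each group is 1 library.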
